A study of Mus musculus with 2 samples.

Results

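Histone genes were followed in the RNA of vesicles that cultured mouse cytotoxic T lymphocytes release into their medium. These lymphocytes (CTL) recognise infected or tumour cells and kill them. Members were the probes whose annotated gene symbol named a histone of the linker (H1), H2A, H2B, H3 or H4 class. This gave 61 of 19316 named genes, read by 66 of 23473 probes, and MHC genes with names that begin H2- were not among them. Of the 61 genes, 48 lie in the replication-dependent histone clusters and 11 are counted as variants outside them, whose mRNA typically carries a poly(A) tail. One of the 11, Macroh2a3, is annotated by RefSeq as a transcribed pseudogene, and it was kept among the macroH2A genes. H2ax, whose mRNA takes both forms, and the pseudogene H1f11-ps were put in neither type. By class, 10 of the genes were linker histones, 18 H2A, 13 H2B, 9 H3 and 11 H4.

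Vesicles from the medium of 7-day cultures were concentrated by 750 kDa ultrafiltration and bound to DEAE, a positively charged resin from which more negative particles leave at higher salt. One group was the fraction that left the column at 0.5 M NaCl, and the other was the fraction that left at 0.3 M NaCl, with 1 single-colour array each. The sources used here give no mouse strain, genotype, age, stimulus or number of cultures. Both fractions are described alike in cells, medium and treatment, but with the number of cultures not given, a shared preparation cannot be assumed. There are no replicates, so every value describes this pair of arrays and no test, p-value or standard deviation between samples could be given.

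Histones package DNA into nucleosomes, with H2A, H2B, H3 and H4 in the core and H1 on the linker between cores. Cluster genes are expressed during DNA replication, and their mRNA ends in a stem-loop bound by SLBP in place of a poly(A) tail. Variant genes such as those of H3.3 and H2A.Z stand outside the clusters, are expressed through the cell cycle and give polyadenylated mRNA. Cytotoxic T cells divide rapidly once activated, and dividing cells carry much histone mRNA. The primer that started the RNA amplification is not given in the sources used here, so how far mRNA without a tail could enter the labelled RNA is not known.

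Core histone genes of the clusters were higher in the 0.5 M fraction in all 4 core classes after the arrays were set to a common centre, and H4 genes differed most. H4 genes had a median log2 difference (0.5 M minus 0.3 M) of 1.01 over 11 genes, cluster H2A genes 0.91 over 10, cluster H3 genes 0.87 over 7 and H2B genes 0.76 over 11. Cluster linker histones lay near the other genes of the array, at 0.20 over 5 genes. Variants had a median of 0.36 over 11 genes, and macroH2A genes lay at or below the median of the array. All 13735 genes measured on both arrays had a median of 0.05. In RNA from a bulk preparation, fewer cells of a type and less RNA per cell, or per vesicle, cannot be told apart. The H2A median moved most with the scaling, and once a loess trend of the difference with intensity was removed it was 0.06 for cluster H2A genes and 0.84 for H4 genes.

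Because H4 genes had the largest differences and encode 1 protein from many separate copies, the stretch before the annotated start of 6 of them is given here. RefSeq holds a start-site window for 10 of the 11 H4 genes, and for 51 of the 61 member genes. Each line holds the 80 bases before the start, 5′ to 3′ on the gene's own strand, with the letters GGTCCG in capitals. That hexamer is known as a binding site core of the H4 regulator HiNF-P. The genes are in falling order of their difference between the fractions (given after the sequences), except that H4c2 and H4c8, which lack the letters before the start, come last.
H4c12: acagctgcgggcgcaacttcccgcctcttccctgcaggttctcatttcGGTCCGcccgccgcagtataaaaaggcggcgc
H4c6: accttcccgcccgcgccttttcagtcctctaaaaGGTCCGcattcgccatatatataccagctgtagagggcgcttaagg
H4c3: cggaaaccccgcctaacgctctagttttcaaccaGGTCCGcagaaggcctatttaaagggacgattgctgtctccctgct
H4c9: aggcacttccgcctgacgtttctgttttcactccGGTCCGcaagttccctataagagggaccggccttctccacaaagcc
H4c2: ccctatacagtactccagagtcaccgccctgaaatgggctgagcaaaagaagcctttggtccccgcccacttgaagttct
H4c8: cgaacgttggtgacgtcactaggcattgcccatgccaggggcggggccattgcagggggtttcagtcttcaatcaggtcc

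In build GRCm38.p6 these stretches are chr13:21750554-21750633 on the minus strand for H4c12, chr13:23551669-23551748 (minus) for H4c6, chr13:23698459-23698538 (minus) for H4c3, chr13:22041363-22041442 (minus) for H4c9, chr13:23756857-23756936 (plus) for H4c2 and chr13:23530964-23531043 (plus) for H4c8. Each ends at the base before the start that RefSeq annotates. The hexamer, on either strand, was in the 250 bases before the start of 7 of the 10 H4 genes, against 6.72% of all 32851 windows of that length. In 4 of the 7 it began exactly 46 bases before the start, and in the others 47, 32 and 18 bases before it. Among the core cluster genes of other classes it was in 0 of 10 H2A, 1 of 10 H2B and 1 of 5 H3 genes. It was also in 2 of 5 H2A variants and 1 of 3 linker variants, and in 0 of 6 linker cluster genes and 0 of 2 H3 variants. The hexamer was therefore not confined to H4 genes among the histones. H4 genes with the letters had differences of 0.85 to 1.48 (median 1.01, 7 genes) and the 3 without them 0.47 to 1.42 (median 1.14), so the ranges overlapped. The window of H4c8 (0.47) ends in ggtcc, the hexamer less its last letter, and the search stopped at the start. A match that crosses the start could not be seen, so the grouping of H4c8 is not settled. H4c1 (1.14) and H4c2 (1.42) lie within the range of the genes with the letters. A match is a run of letters, and nothing was measured here about the binding of a factor.

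H4 genes, whose copies all encode the H4 core histone, were each measured by 1 probe, and all 11 had a higher intensity at 0.5 M before any scaling. H4c12 had an intensity of 215 at 0.5 M and 95 at 0.3 M, a centred log2 difference of 1.48 (2.79-fold). H4c6 had 278 at 0.5 M and 123 at 0.3 M (1.48, 2.78-fold). H4c2 had 259 at 0.5 M and 119 at 0.3 M (1.42, 2.68-fold). These 3 genes had the largest differences of all histone genes. Next came H4c3 (115 at 0.5 M, 62 at 0.3 M, 1.19), H4c1 (211 and 118, 1.14) and H4c18, a gene measured by a brighter probe (813 and 497, 1.01). H4c9 (203 at 0.5 M, 134 at 0.3 M), H4c4 (112 and 74) and H4c11 (41 and 28) had differences of 0.90, 0.90 and 0.85. The 2 smallest differences were those of H4c8, at 0.47 (165 at 0.5 M, 147 at 0.3 M), and H4c14, at 0.33 (45 at 0.5 M, 44 at 0.3 M).

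At least 2-fold higher at 0.5 M were 6 of these 11 genes, against 5.24% of the 7446 genes bright enough to be kept. A gene was kept when its centred value, on either array, reached that array's median over measured genes. H4c11 passed this filter through the 0.5 M array alone, where it is higher. As deposited, with no centring, 3 of the 11 passed 2-fold (H4c12, H4c6 and H4c2), against 1.63% of kept genes. H4 coding sequences are closely alike, so a probe may bind the mRNA of several copies, and the 11 values are not independent measurements. Cluster H2A and H3 copies may share signal in the same way, which could not be checked without probe sequences.

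**Figure D1:**
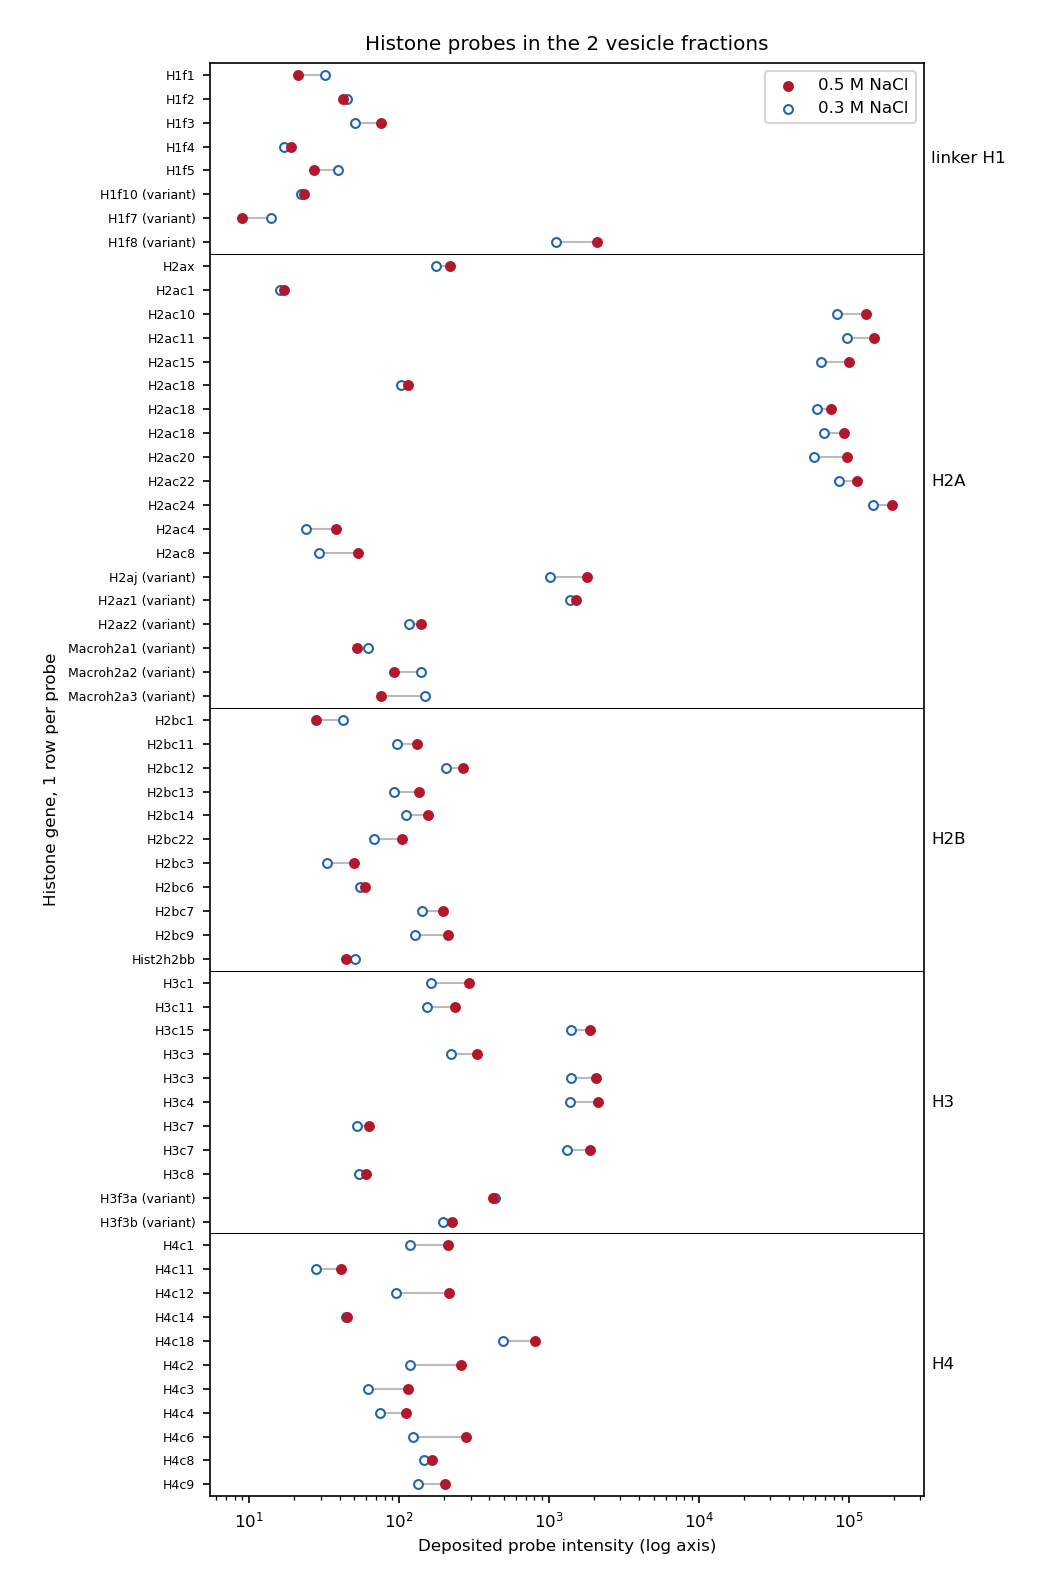
Deposited intensity (log axis) of each histone probe with a value on both arrays, by class, with filled red points for the 0.5 M fraction and open blue points for the 0.3 M fraction. The red point lies to the right in 50 of the 60 probes, in every H4 row and in every very bright H2A row, and to the left for H1f1, H1f2, H1f5, H1f7, H2bc1, Hist2h2bb, H3f3a and the macroH2A genes.

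Before any centring, the deposited intensities already set histone probes apart in direction. Of the 60 member probes with a value on both arrays, 50 (83.3%) were brighter at 0.5 M and 10 dimmer, whereas of all 16154 such probes 4951 (30.6%) were brighter at 0.5 M and 10512 dimmer. The median probe had an intensity of 26 at 0.5 M and 32 at 0.3 M. Subtracting each array's own median took out a shift of -0.30 on the log2 scale, and the differences below are centred unless said otherwise. After centring, the kept genes of the array had a median of 0.08, and as deposited -0.22.

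The H2A genes of the clusters fell into a very bright set and a dim set. Of the 17 probes on the array above 50000 on both arrays, 8 were H2A probes, of 7 genes. H2ac24 had 193593 at 0.5 M and 145917 at 0.3 M (0.71). H2ac11 had 148430 at 0.5 M and 97552 at 0.3 M (0.91). H2ac10 had 130899 at 0.5 M and 83998 at 0.3 M (0.94). All 8 were brighter at 0.5 M, by raw ratios of 1.25 to 1.67. H2ac22 (114091 at 0.5 M, 85927 at 0.3 M, 0.71), H2ac15 (100398 and 65889, 0.91) and H2ac20 (97506 and 58449, 1.04) completed the genes with a single bright probe. H2ac18 had 2 bright probes, at 92879 and 76484 at 0.5 M against 68881 and 61333 at 0.3 M, and 1 dim probe at 114 at 0.5 M and 103 at 0.3 M. Its 3 probes had differences of 0.73, 0.62 and 0.45, so they lay on the same side of 0 although 2 were very bright and 1 was dim.

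The 8 bright H2A probes had a median difference of 0.82, with a range of 0.62 to 1.04. The 9 other probes this bright had a median of 0.85 and a wider range of -0.33 to 1.21, which spans the H2A values. With quantile normalization the cluster H2A median was 0.06, and H2ac22 (-0.12) turned below 0. That method gives equal ranks on the 2 arrays the same value. Probes that hold the top ranks on both arrays, as these do, are therefore drawn towards 0 by the method itself. With the loess trend removed H2ac22 (-0.16), H2ac24 (-0.21) and H2ac18 (-0.02) lay below 0. Of the dim copies, H2ac8 and H2ac4 passed the filter through the 0.5 M array alone, where they are higher, so their values are descriptions of genes that the filter favoured. H2ac8 had 53 at 0.5 M and 29 at 0.3 M, a difference of 1.17, and 1.13 with quantile normalization and 1.15 with loess. H2ac4 had 38 at 0.5 M and 24 at 0.3 M (0.96, and 0.97 under both). H2ac1, a testis-specific copy, was dimmer than the filter allows at 17 at 0.5 M and 16 at 0.3 M (0.39). The last gene, Hist3h2a, had a value at 0.3 M alone, of 5.

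**Figure D2:**
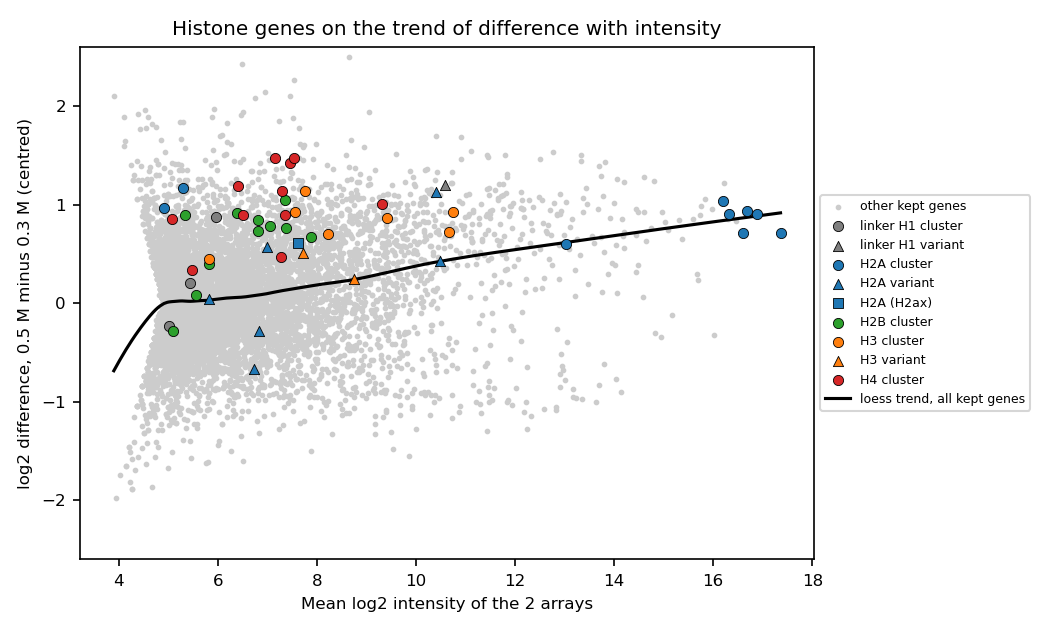
Centred log2 difference (0.5 M minus 0.3 M) against mean log2 intensity of both arrays, with each kept histone gene as a coloured point, the other kept genes in grey and the loess trend of all kept genes as a line. Very bright H2A genes lie near the line, whereas most H4, H2B and H3 cluster genes lie above it and the macroH2A genes on or below it. The vertical axis leaves out 3 other genes.

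Of the H2B genes, 10 of 11 lay above 0, over a range of -0.29 to 1.05. H2bc9, the only H2B gene past 2-fold, had 213 at 0.5 M and 127 at 0.3 M (1.05, 2.06-fold). H2bc22 (104 at 0.5 M, 68 at 0.3 M), H2bc3 (50 and 33) and H2bc13 (136 and 93) followed at 0.91, 0.90 and 0.85. H2bc14 (156 at 0.5 M, 112 at 0.3 M), H2bc7 (196 and 142), H2bc11 (131 and 97) and H2bc12 (267 and 207) lay between 0.67 and 0.78. These 7 genes lay between 0.67 and 0.91, a spread within the disagreement between probes of a gene described below. H2bc6 was lower than these, at 0.40 (59 at 0.5 M, 55 at 0.3 M), and its second probe had a value at 0.3 M alone, of 8. Hist2h2bb was at 0.09 (44 at 0.5 M, 51 at 0.3 M). The testis-specific H2bc1 was the only H2B gene below 0, at -0.29 (28 at 0.5 M, 42 at 0.3 M). H2bc21 had a value at 0.3 M alone, of 8, and H2bc4 was empty on both arrays.

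Cluster H3 genes, which encode the replicative H3 proteins, were all above 0. H3c1 had 291 at 0.5 M and 163 at 0.3 M (1.14, 2.20-fold) and was the only one past 2-fold. H3c11 (236 at 0.5 M, 153 at 0.3 M) and H3c4 (2135 and 1387) both had 0.92. H3c3 was read by 2 probes, at 2072 and 333 at 0.5 M against 1406 and 223 at 0.3 M, and the 2 gave almost the same difference, 0.86 and 0.88. For H3c7 the 2 probes gave 0.83 (1890 at 0.5 M, 1312 at 0.3 M) and 0.58 (63 at 0.5 M, 52 at 0.3 M). H3c15 had 0.73 (1882 at 0.5 M, 1401 at 0.3 M) and H3c8 0.45 (60 at 0.5 M, 54 at 0.3 M). With the loess trend removed the 7 genes ranged from 0.29 (H3c15) to 0.97 (H3c1), so none turned below 0.

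Linker histones of the clusters did not share a direction. H1f3 was higher at 0.5 M, with 76 against 51 at 0.3 M (0.88). H1f4 (19 at 0.5 M, 17 at 0.3 M, 0.46) and H1f2 (42 and 45, 0.20, and -0.10 as deposited) lay closer to the other genes. H1f5 (27 at 0.5 M, 39 at 0.3 M, -0.23) and H1f1 (21 and 32, -0.31) were lower at 0.5 M. All 5 were dim, and H1f1 and H1f4 were below the filter. Testis-specific H1f6 and the pseudogene H1f11-ps were empty on both arrays.

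**Figure D3:**
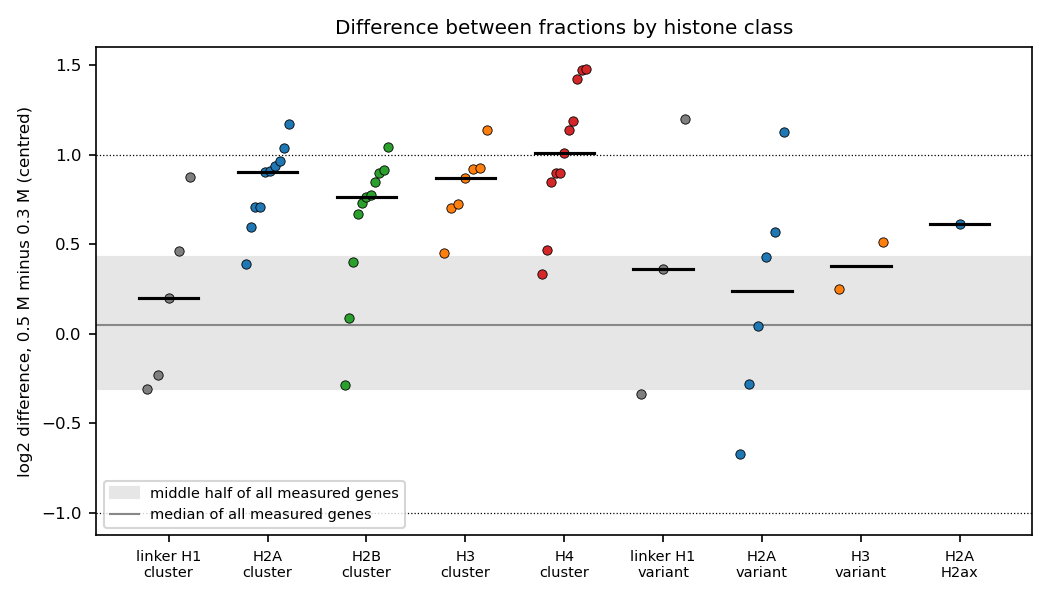
Centred log2 difference (0.5 M minus 0.3 M) of each of the 56 measured histone genes, by class and type, with a black bar at each group's median and dotted lines at 2-fold. The grey band spans the lower to the upper quartile of all 13735 measured genes (-0.31 to 0.43), and the core cluster classes have medians of 0.76 to 1.01, above it.

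Variants with polyadenylated mRNA were spread from -0.67 to 1.20. H1f8, the linker histone of oocytes, had 2093 at 0.5 M and 1120 at 0.3 M (1.20, 2.30-fold). It was read by 1 probe, brighter than that of any cluster linker gene, and whether the probe binds other mRNA was not checked. H2aj, an H2A variant close to the canonical protein, had 1801 at 0.5 M and 1013 at 0.3 M (1.13, 2.19-fold). These 2 were the variants past 2-fold, and both were well above the loess trend, by 0.77 and 0.71. As deposited neither reached 2-fold (0.90 and 0.83).

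The 2 genes of H2A.Z, a variant found at active promoters, had smaller differences. H2az2 had 141 at 0.5 M and 117 at 0.3 M (0.57) and H2az1 1509 at 0.5 M and 1381 at 0.3 M (0.43). H2az1 lay on the trend for its brightness, at 0.00 with loess, whereas H2az2 kept 0.47. H3f3a and H3f3b, which both encode the replacement histone H3.3, were at 0.25 (421 at 0.5 M, 436 at 0.3 M) and 0.51 (227 at 0.5 M, 196 at 0.3 M), and H3f3a was at -0.05 as deposited. H2ax, the variant phosphorylated at DNA breaks, had 220 at 0.5 M and 177 at 0.3 M (0.61).

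MacroH2A genes, whose proteins carry a large extra domain and are linked to silent chromatin, were all dimmer at 0.5 M before centring. The transcribed pseudogene Macroh2a3 had the lowest difference of the histone genes, with 76 at 0.5 M and 149 at 0.3 M (-0.67). Macroh2a2 had 93 at 0.5 M and 139 at 0.3 M (-0.28). Macroh2a1 had 52 at 0.5 M and 62 at 0.3 M (0.05 after centring, -0.25 as deposited). With quantile normalization or loess Macroh2a1 was within 0.02 of 0. The remaining linker variants were dim, with H1f10 at 23 at 0.5 M and 22 at 0.3 M (0.36) and the testis gene H1f7 at 9 at 0.5 M and 14 at 0.3 M (-0.34).

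Of the 3 classes that hold both types, cluster genes had the higher median in H2A and H3 and the lower one in the linker class. Linker cluster genes had 0.20 (3 kept genes) and the only kept linker variant, H1f8, 1.20, and over all measured genes the pair was 0.20 (5 genes) and 0.36 (3 genes). Kept H2A cluster genes had a median of 0.91 (9 genes) and H2A variants 0.24 (6 genes), but with loess the pair was 0.06 and 0.01, so little of the gap remained there. Kept H3 cluster genes had 0.87 (7 genes, lowest 0.45) and H3.3 genes 0.38 (2 genes, highest 0.51), and with loess 0.50 against 0.18. The lowest H3 cluster gene, H3c8, lay below H3f3b, so the types overlapped in H3, as they did in H2A and, over all measured genes, in the linker class. Over all classes the median was 0.88 for 41 kept cluster genes and 0.43 for 9 kept variants, a gap of 0.45 that was between 0.33 and 0.62 in every other setting tried. Without the pseudogene Macroh2a3, left out after the data were seen, the variant median was 0.47 over 8 genes and the gap 0.41. No test of that gap was possible with 1 array per fraction.

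Counted together, 12 of the 51 kept histone genes were at least 2-fold higher at 0.5 M, against 5.24% of all kept genes. The count at least 2-fold lower was 0, against 2.35% of all kept genes. Cluster genes made up 10 of the 12: 6 H4, 2 H2A (H2ac8 and H2ac20), H2bc9 and H3c1. The other two were H1f8 and H2aj. Above 0 were 47 of the 51, against 55.9% of kept genes, and 38 of the 51 exceeded the upper quartile of all kept genes, 0.47. Of the 51, 48 passed the filter on both arrays. The other 3, H2ac4, H2ac8 and H4c11, passed on the 0.5 M array alone, which favours a higher value there. Without any filter, 50 of 56 measured members lay above 0 against 53.8% of all measured genes, 12 were at least 2-fold higher against 5.1% and 0 at least 2-fold lower against 2.77%. Counted by probe in place of gene, 12 of 56 kept member probes were at least 2-fold higher (5.53% of kept probes) and 0 lower (2.39%). Just inside 2-fold were H4c18 (1.01) and H2ac20 (1.04), and just outside were H2ac4 (0.96) and H2ac10 (0.94). Probes of like copies may share mRNA, so these counts are not counts of independent genes.

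How many passed 2-fold rested on the scaling, while the medians of the 5 classes stayed above 0 under every scaling tried. With quantile normalization 6 members were at least 2-fold higher (background 3.32%), with loess 6 (3.28%) and as deposited 3 (1.63%), and no member was at least 2-fold lower in any of them, against backgrounds of 3.82%, 3.73% and 7.78%. Above 0 were 44 of 51 with quantile normalization (50% of kept genes), 44 with loess (49.6%) and 43 as deposited (34.4%). H4 cluster genes kept medians of 0.84, 0.84 and 0.71 in these settings, H2B genes 0.64, 0.65 and 0.46 and H3 cluster genes 0.53, 0.50 and 0.57. H2A cluster genes had 0.06, 0.06 and 0.61, and the cluster linker genes 0.18, 0.18 and -0.10 (3 kept genes). The median of variants was 0.03, 0.02 and 0.13. Removing the H4 genes, an alternative chosen after the data were seen, left 6 of 40 at least 2-fold higher (background 5.16%) and 0 lower (2.35%). With a pseudocount of 16, 5 of 51 were at least 2-fold higher (2.11%) and 0 lower (1.31%).

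**Figure D4:**
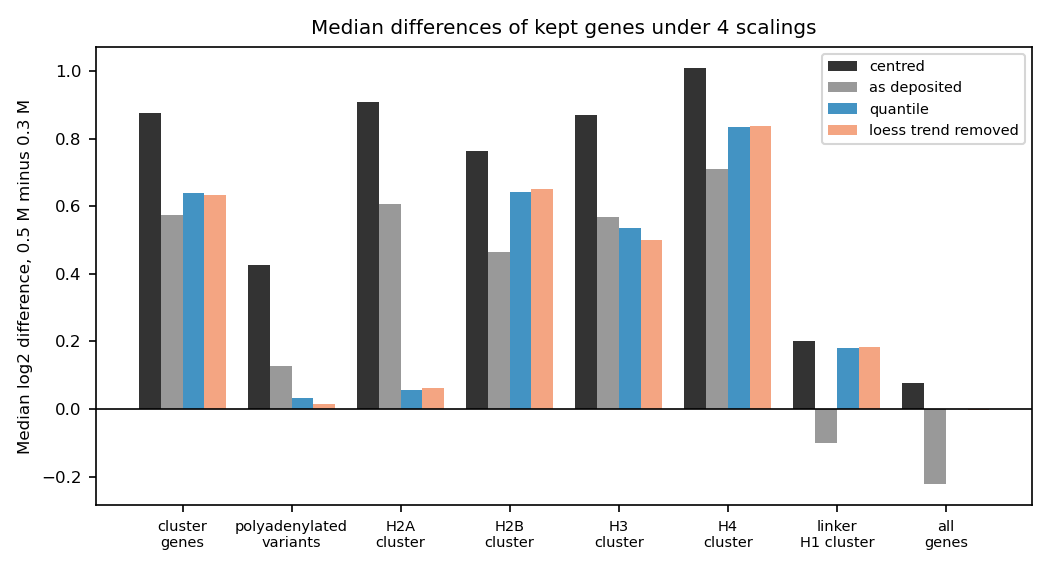
Median log2 difference (0.5 M minus 0.3 M) of kept genes in each group, as bars from 0, under centring, no scaling, quantile normalization and removal of the loess trend. H4 medians stay between 0.71 and 1.01, H2A cluster medians are near 0 in the last 2 settings, and the all-gene median is -0.22 as deposited.

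The difference was read at matched brightness by placing members beside other kept genes of the same mean intensity. Between 100 and 200, the range with most histone genes, 12 cluster genes had a median of 0.91 and 3 variants -0.28, while 1175 other genes had 0.08 with quartiles of -0.25 and 0.45. Between 50 and 100, 6 cluster genes had 0.89, 1 variant 0.05 and 1918 other genes 0.03. The cluster median was above the upper quartile of other genes in both ranges. Between 200 and 1000, 5 cluster genes had 0.87, 2 variants 0.38 and 1170 other genes 0.24. At 1000 to 10000 the order of the types was the other way, with 3 cluster genes at 0.73, 3 variants at 1.13 and 343 other genes at 0.55, and at 10000 and above 6 H2A genes had 0.91 and 67 others 0.74. From 50 upward, the gap between the median of all histone genes and that of other genes was smaller in each brighter range. Below 50 it was 0.33 for 9 histone genes against 0.01 for 2722 others.

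Disagreement between probes gave the only error that could be estimated. Over 358 kept genes with several probes the SD between probes of the same gene was 0.55 on the log2 scale, and the SD of the differences of all kept genes was 0.56. Single histone differences under about that size, among them all linker cluster genes but H1f3 and all variants but H1f8, H2aj, H2az2 and Macroh2a3, were therefore within probe disagreement. That size is 1 SD and no limit of the error, and H2az2 (0.57) and Macroh2a3 (-0.67) lay close to it. Because these SDs were nearly equal, a single gene's difference past that size may still be probe disagreement. The 3 histone genes with several probes on both arrays had ranges of 0.28 for H2ac18, 0.02 for H3c3 and 0.25 for H3c7. They are few, and their probes may share the mRNA of several copies, so these ranges do not show a smaller error. This error leaves out the variation between vesicle preparations.

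Neighbouring genes gave a second view, since some H2A and H2B genes stand head to head and share the stretch between their starts. In 3 pairs with both genes measured the starts were 240 to 281 bases apart. H2ac11 and H2bc11, 249 bases apart, had differences of 0.91 and 0.73. H2ac22 and H2bc22, 240 bases apart, had 0.71 and 0.91. The testis-specific pair of H2ac1 and H2bc1, 281 bases apart, had 0.39 and -0.29, both from dim probes. The shared stretch of H2ac11 and H2bc11 is shown as an example of such a promoter, on the plus strand of GRCm38.p6 at chr13:22042950-22043197, 248 bases between the start of H2ac11 (leftward) and of H2bc11 (rightward). Capitals mark CCAAT, the box bound by NF-Y, and its reverse complement ATTGG, which occur 5 times in all.
H2ac11/H2bc11: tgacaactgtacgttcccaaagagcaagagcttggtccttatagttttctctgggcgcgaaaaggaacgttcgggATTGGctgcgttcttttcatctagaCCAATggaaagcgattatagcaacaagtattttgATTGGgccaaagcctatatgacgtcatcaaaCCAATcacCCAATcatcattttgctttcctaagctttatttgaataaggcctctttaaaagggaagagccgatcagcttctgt

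CCAAT on either strand was in the 250 bases before the start of all 10 H2A, 10 H2B and 6 linker cluster genes with a window, 4 of 5 H3 and 3 of 10 H4 genes, against 33.8% of all windows. The octamer ATTTGCAT, known as the Oct-1 site of H2B promoters, was in 4 of 10 H2A and 5 of 10 H2B cluster genes, in 0 of 10 H4 genes and in 1.60% of all windows. TATAAA was in 5 of 10 H2A, 5 of 10 H2B, 2 of 5 H3, 5 of 10 H4 and 4 of 6 linker cluster genes and in 12.4% of all windows. None of these 4 motifs contains another.

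Genes that serve histone supply did not share the size of the cluster differences. Those of histone mRNA processing and the histone locus body had a median of -0.04 over 12 kept genes of 24 listed, with 0 past 2-fold either way. Lsm10, a ring protein of the U7 particle that cuts histone mRNA, was at 0.81 (190 at 0.5 M, 133 at 0.3 M) and Slbp, the stem-loop binding protein, at 0.44 (32 at 0.5 M, 29 at 0.3 M). Cpsf3, the endonuclease that cuts histone and polyadenylated mRNA, was at 0.39 (65 at 0.5 M, 61 at 0.3 M). Of the 12, 6 lay above 0. Slbp passed the filter through the 0.5 M array alone, where it is higher. Npat, the activator of cluster histone genes, was too dim to be kept, at 6 at 0.5 M and 24 at 0.3 M, and is named for its role after its values were seen.

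Histone chaperones, which carry histones to and from DNA, had a median of 0.17 over 21 kept genes of 33 listed. Of these, 0 were at least 2-fold higher and 1 lower, against 5.24% and 2.35% of all kept genes. That gene was Ubn1 of the H3.3-depositing HIRA complex (15 at 0.5 M, 41 at 0.3 M, -1.15). Ubn1 passed the filter through the 0.3 M array alone, where it is higher, so the filter favoured that count. Vps72, which handles H2A.Z, was at 0.99 (29 at 0.5 M, 18 at 0.3 M) and Asf1b, a chaperone of new H3 and H4, at 0.55 (159 at 0.5 M, 134 at 0.3 M). Vps72 passed the filter through the 0.5 M array alone, where it is higher. DNA replication genes, which are expressed in S phase with the cluster histones, had a median of 0.15 over 31 kept genes of 46 listed. Among them 0 were at least 2-fold higher and 0 lower, against 5.24% and 2.35% of all kept genes. Rrm2 (98 at 0.5 M, 233 at 0.3 M, -0.95), E2f1 (92 and 200, -0.82) and Tk1 (181 and 127, 0.81) were farthest from 0. Cytosolic ribosomal proteins, another group of short abundant mRNAs, had a median of 0.60 over 62 kept genes, and with loess 0.08. At least 2-fold higher were 5 of the 62, against 5.24% of all kept genes, and 0 were at least 2-fold lower, against 2.35%. The farthest from 0 were Rpl36 (1.44), Rps10 (1.25) and Rps15 (1.12).

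Some markers of other cells also differed between the fractions. Summed intensities below are as deposited, without centring. CTL markers had a median of 0.49 over 9 kept genes of 10. None was at least 2-fold higher or lower, against 5.24% and 2.35% of all kept genes. Their summed intensity was 32949 at 0.5 M and 47808 at 0.3 M, most of it the transcription factor Tbx21. Cd8a, the coreceptor that defines these cells, had 2463 at 0.5 M and 3677 at 0.3 M, and Gzmb, a killing protease, 2838 at 0.5 M and 2493 at 0.3 M. B cell markers had a median of 1.84, with 3 of 4 kept genes (Blnk, Cd74 and Cd79b) at least 2-fold higher, against 5.24% of all kept genes. Blnk (63 at 0.5 M, 26 at 0.3 M) passed the filter through the 0.5 M array alone, where it is higher. The filter therefore favoured that count and median. Cd22, the remaining kept gene, went the other way (126 at 0.5 M, 225 at 0.3 M, -0.54). Cd79a (-0.15) and Ms4a1 (0.30) were too dim to be kept, and the B cell factor Pax5 was empty on both arrays. The summed intensity of the B cell list was 737 at 0.5 M and 424 at 0.3 M. Red cell markers had a median of -0.73 over 4 kept genes, with sums of 7931 at 0.5 M and 17151 at 0.3 M. Macrophage and dendritic cell markers summed to 245 at 0.5 M and 407 at 0.3 M with a median of 0.33 over 3 kept genes. Mrc1 was more than 2-fold lower (87 at 0.5 M, 259 at 0.3 M), Cd68 (0.38) and Csf1r (0.33) lay above 0, and Adgre1 was empty on both. Fibroblast markers summed to 106 at 0.5 M and 138 at 0.3 M, with a centred median of 0.12 over 2 kept genes. These went opposite ways (Col1a2 0.68, Col3a1 -0.44), and each passed the filter only on the array where it is higher. Of the 7 testis germ cell genes 1 was kept (Ddx4, -0.20). Of nuclear noncoding RNAs 2 were kept, Malat1 at 1.21 and Meg3 at 0.17, but the 2 Malat1 probes disagreed (128 at 0.5 M and 33 at 0.3 M, against 88 and 96). The part of these genes in the histone differences was not tested.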

How the data were processed

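Total RNA was amplified and labelled with Cy5 for 1 single-colour array per fraction, per the labels. The deposited table gives each probe's intensity, linear and in whole numbers. How it was scanned, corrected for background and normalized, and why some cells are empty, is not given in the sources used here. A value was present for 16732 probes at 0.5 M and 18969 at 0.3 M, and with 2 arrays their number limits the precision. Symbols came from the array annotation (20690 probes with a symbol, 2783 without), updated through a RefSeq table (GRCm38.p6). Of the member genes 59 matched by Entrez identifier and 2 kept the array symbol. No build is named for the array.

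Intensities were log2-transformed and each array's median over the 16154 probes measured on both was subtracted. Probes of a gene were averaged where both arrays had a value, and genes that reached an array's median over measured genes were kept (7446 of 13735). Differences are 0.5 M minus 0.3 M, counted at 2-fold. The computation was tested on simulated data. Alternatives were no centring, quantile normalization, a loess trend removed (span 0.3, statsmodels 0.14.6), no filter, an upper-quartile filter, a pseudocount of 16, the brightest probe and each probe alone, and, added after the data were seen, leaving out H4 genes, H2A probes above 50000 or Macroh2a3. Python 3.11.15 was used.

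Named genes were all variants measured on both arrays, in each cluster class the 4 with the largest difference and the 3 with the highest intensity, members past 2-fold, members with a value on 1 array and up to 3 genes of each supply list. Other members, and Npat and the marker genes, are named outside that rule with their values known. They were chosen, like the supply, ribosomal and marker lists, with earlier results of these data known. Motifs were chosen after the sequences were seen.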

Additional observations from a re-analysis of the deposited data

How the results depend on the processing

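With 1 array per fraction no replicate could be left out, and no paired analysis was possible because each fraction has a single sample and no test. No median of the 5 classes turned its sign under any alternative run, while within classes those of linker cluster genes (-0.10) and H2A variants (-0.06) lay below 0 as deposited. Sizes moved, and with no replicates the only yardstick, the SD between single probes, is too wide to judge medians by. The H2A median, 0.71 with centring over 16 genes, was 0.041 with quantile normalization, which draws top-ranked probes together, and 0.042 with loess. The count of members at least 2-fold higher, 12 with centring, was 3 as deposited (1.63% of all kept genes), 6 with quantile normalization (3.32%), 6 with loess (3.28%), 5 with a pseudocount (2.11%) and 6 without the H4 genes (5.16%, chosen after the data were seen), against 5.24% with centring. The last follows from leaving out the 11 H4 genes, and the cause of the others was not tested. The median of all kept members was between 0.49 and 0.88 and that of H4 between 0.71 and 1.14 over all alternatives, leaving out the very bright H2A probes among them. The variant median, 0.43 with centring, ranged from 0.02 to 0.47. The linker median, 0.54 over 4 kept genes, ranged from 0.20 to 1.04. Dim members (H1f1, H1f4, H1f7, H1f10 and H2ac1) and the probes empty on 1 array limit the linker and testis-specific genes most, since their signal over background is not known.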
